A study of Sus scrofa with 21 samples.

Results

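Motile cilium and intraflagellar transport genes were followed in whole blood of young pigs. They were taken by gene name from the array annotation, as the names that begin with DNAH, DNAI and a digit, DNAL, RSPH, CFAP, IFT and a digit, TEKT, BBS and a digit, SPAG, TTC and a digit, DYNC2, DYNLRB or ROPN1, and HEATR4. The rule found 69 genes, with 63 probes of the array's A_72 series and 53 of its O series, among 48527 gene names on 60305 probes. DD pigs are minipigs of the inbred SLAdd line, homozygous at the swine leukocyte antigen locus, and LW pigs are commercial Large White pigs. Both were 60 days old, and the labels name no transgene or treatment. Total RNA of 10 DD pigs from 5 litters and 11 LW pigs from 6 litters was hybridized to a one-colour Agilent pig array, 1 array per pig, on 3 chips that each held both breeds. Breed, herd and the line's inbreeding cannot be told apart.

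A motile cilium is a whip-like cell projection built on a ring of microtubule doublets, the axoneme. Outer and inner axonemal dyneins make the doublets slide, and radial spokes and the central pair set the beat. Intraflagellar transport carries building blocks along the axoneme, outwards with kinesin-2 and back with dynein-2, and the BBSome is an adaptor for membrane cargo on these trains. Circulating blood cells carry no motile cilia, so the genes were first examined for signal. The name families reach beyond the cilium: SPAG5 is a mitotic spindle protein, DYNLRB1 is shared with cytoplasmic dynein, and most TTC proteins have the tetratricopeptide repeat in common but no known ciliary role. No gene name in the scanner files began with CFAP. The paper, which updated the annotation, names a CFAP gene among its results, so such genes may stand under other names here.

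The probe letters that stand behind the main results follow, to show what each value was measured with. They are stretches of 30 bases of the 60-base probes, 5′ to 3′ as the scanner files write them, with the polyadenylation signal AATAAA or its reverse complement TTTATT in capitals where a probe holds one.
DNAH9: cgaactttccctAATAAAgtgatttttctt
RSPH9: gatccttcacacgagtatgaacacaccgag
TTC33: tTTTATTtccagccaaattggctccttcgt
HEATR4: ctttgggttgcaAATAAAcacgttttgctt
IFT80 probe 1: ttattttatccctgaatcttcagtatgaac
IFT80 probe 2: atcaatattaatctctacaactgggagagg
IFT80 probe 3: ttggaaattgctctggatcaaaaaggactt

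AATAAA was found in 8 of the member probes (6.90%) and in 10.3% of all probes of this length, and TTTATT in 4 (3.45%) and in 4.32%. A match is only a description of the letters. The probe named HEATR4 has exactly the letters of a second probe, which the annotation names TC550653.

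Of the 69 genes, 25 had a signal well above background, by the scanner software's flag, on all 21 arrays. Another 25 had it on some arrays and 19 on none. The shares on all arrays and on none were 36.2% and 27.5%, against 37.6% and 22.0% of all gene names. Fewer cells that contain an RNA and less RNA per cell cannot be told apart in whole blood. Precision is limited throughout by how many arrays there were.

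**Figure D1:**
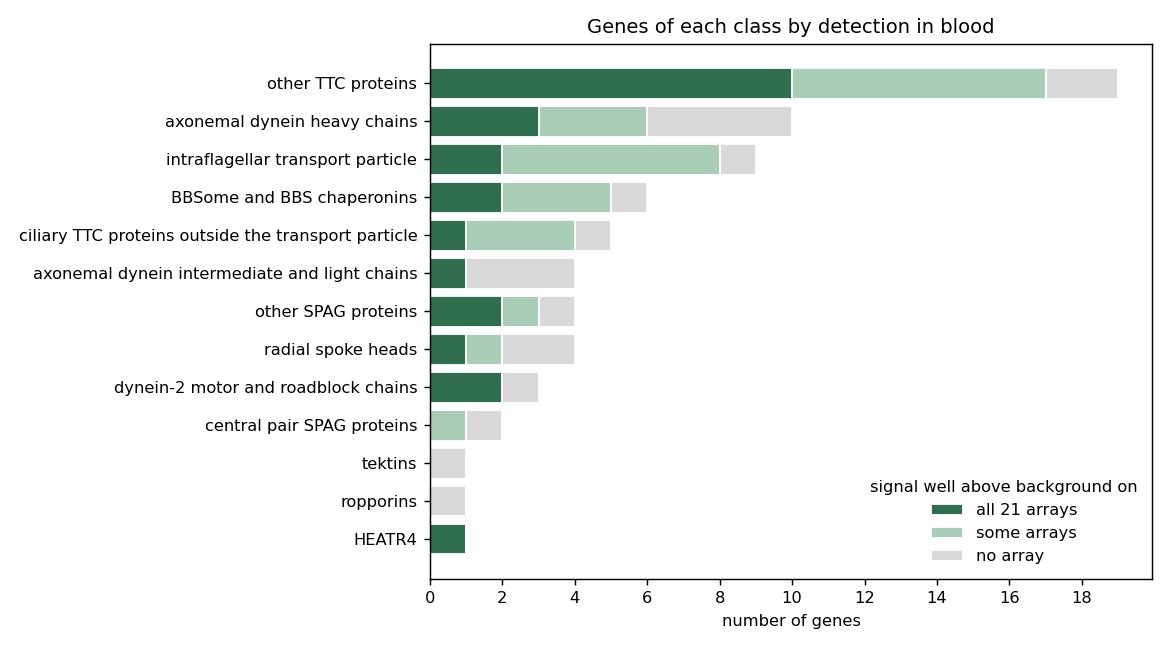
Number of genes (x axis) of each class (y axis) with signal well above background on all 21 arrays, on some arrays or on none. The class of other TTC proteins held 10 of the 25 genes above background on all arrays, and the tektin and the ropporin had none.

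Detection differed among the classes. Among the axonemal dynein heavy chains, the motor subunits, DNAH1, DNAH9 and DNAH11 were above background on all arrays, DNAH17 on 19, DNAH6 on 18 and DNAH10 on 2. DNAH2, DNAH3, DNAH7 and DNAH8 were above it on none. The intermediate chains DNAI1 and DNAI2, core parts of the outer arm, and DNALI1 were also above background on no array, and DNAL4 on all. Of the radial spoke proteins, RSPH6A was detected on 21 arrays and RSPH9 on 16, while RSPH3 and RSPH4A were not. The central pair gene SPAG6, the tektin TEKT4 and the ropporin ROPN1 were on no array, and SPAG17, also of the central pair, was on 1.

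Of 9 genes for the transport particle, 8 were detected on at least 1 array. IFT52 and IFT80 were above background on all arrays, IFT46 on 20 and IFT122 on 19. IFT172, IFT140, IFT74 and TTC30B were on 11, 5, 5 and 1 arrays, and IFT81 on none. The dynein-2 light intermediate chain DYNC2LI1 and the roadblock chain DYNLRB1 were on all arrays, but the dynein-2 heavy chain DYNC2H1, the motor itself, was on none. Of the Bardet-Biedl genes, BBS1 and BBS4 were on all arrays, BBS12 on 11, BBS7 on 7, TTC8 on 2 and BBS2 on none.

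Detection also went with the kind of probe. Probes with a name of the O series made up 45.7% of the member probes and 15.8% of all probes. Of 53 member probes of that series 20.8% were above background on all arrays, against 43.5% of the whole series. Of 63 member probes of the A_72 series the share was 47.6%, against 38.1%. What an absent signal owes to the probe and what to the RNA was not tested.

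DD arrays were dimmer than LW arrays. Brightness was taken as the 75th percentile of an array's processed signal on a log2 scale. It averaged 7.53 ± 0.54 (SD, n = 10) over DD pigs and 8.22 ± 0.38 (SD, n = 11) over LW pigs. Chip 1 had nearly equal means (7.95 and 8.02), while DD pigs were dimmer on chip 2 (7.55 and 8.31) and chip 3 (7.09 and 8.36). Between 31 and 37 of the 69 genes were above background on a DD array and between 32 and 42 on an LW array, beside 44.7% to 61.0% and 53.0% to 63.8% of all probes. The dimmest array was that of the pig DD_21 (6.56). This pig was the highest or the lowest of its breed in 21 of the 51 tested genes, and no other pig in more than 15. The same count was not made over all gene names, so it is not a trait of these genes.

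Breeds were compared in limma on the deposited log2 values, which the authors had quantile normalized, with chip in the model and siblings of one sow as a random block. A log2 FC is DD minus LW, and a gene was called at a Benjamini-Hochberg adjusted p below 0.05 over all 35578 gene names tested. The 25% of probes with the lowest mean were left out, which removed 18 of the 69 genes. Of these, 16 were above background on no array, and SPAG17 and TTC8 on 1 and 2.

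Of the 51 genes tested, 4 were called (7.84%), while 21.0% of all gene names tested were called. DNAH9, RSPH9 and TTC33 were higher in DD pigs, where 11.4% of all gene names were called higher, and IFT80 was lower, where 9.57% were called lower. Under their names DNAH9, RSPH9 and TTC33 had only 1 probe each, and IFT80 had 3. Without adjustment, 11 of the 51 genes had a p below 0.05 (21.6%, against 36.7% of all). Of the 25 genes above background on all arrays, 3 were called (12.0%), against 28.6% of the 18237 such gene names. The median log2 FC was −0.04 both in the 51 genes and over all gene names, and the median size of the difference was 0.23 in both. In 0 of the 51 genes did every DD pig lie on one side of every LW pig, as in 0.382% of all gene names. With no sow block in the model the same 4 genes were called, and 14.4% of all gene names.

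**Figure D2:**
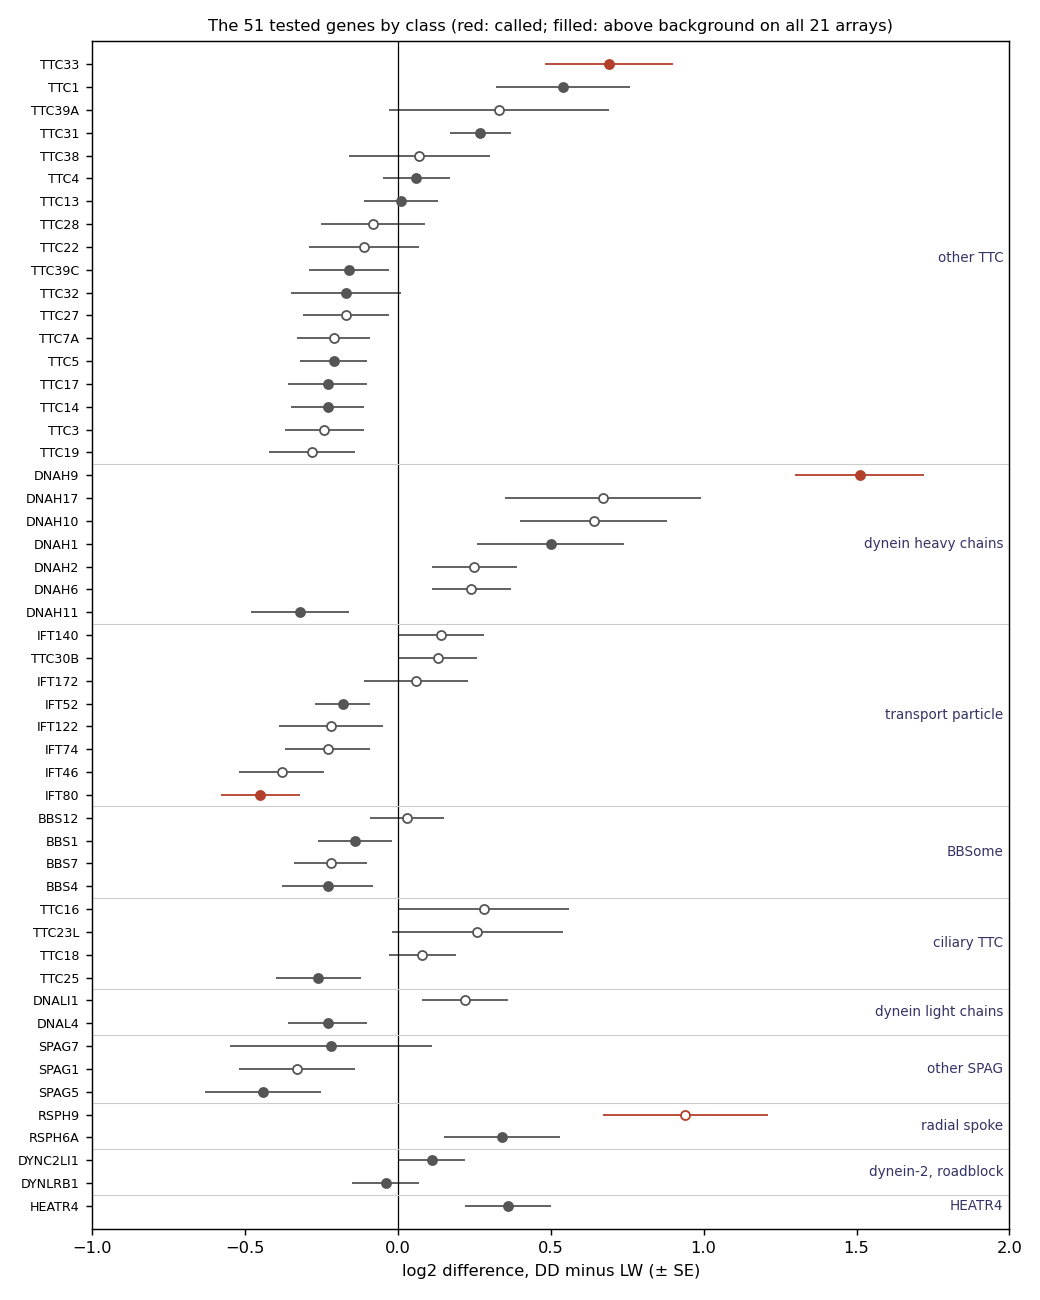
Log2 difference between DD and LW pigs (x axis, points with SE from limma) of the 51 tested genes (y axis), grouped by class. Red marks the 4 called genes, and filled points mark genes above background on all 21 arrays. DNAH9 stands at 1.51, and the other 50 genes lie between −0.45 and 0.94.

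DNAH9 encodes a heavy chain of the outer dynein arm, a motor of the ciliary beat in the airway. By the RefSeq table of Sscrofa11.1 its gene spans chromosome 12, positions 56045079 to 56366327. Its log2 value had a lowest, median and highest of 7.24, 8.10 and 8.49 in DD pigs and of 5.20, 6.69 and 7.48 in LW pigs. The ranges overlapped only slightly, since 8 of 10 DD pigs exceeded every LW pig and 10 of 11 LW pigs were below each DD pig. This gave a breed difference of 1.51 in log2 FC, with SE 0.21 (limma adjusted p = 8.78e-05). Every array had the probe well above background.

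The difference in DNAH9 was present on each chip, at 2.27 on chip 1, 1.25 on chip 2 and 0.97 on chip 3. The means of the litters, after removal of the chip effect, differed by 1.46 (two-sided exact permutation over 462 divisions of the litters, unadjusted p = 0.00216, the smallest possible). With the brightness of the array in the model the log2 FC came to 1.67, with SE 0.28 (limma adjusted p = 0.00232). In that fit DNAH9 was the only one of the 51 genes called, where 2.19% of all gene names were called. It was also called with each chip and each pig left out.

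The other dynein heavy chains did not pass the test. DNAH1, an inner arm heavy chain, had log2 values of 12.62, 13.63 and 14.67 (lowest, median and highest) in DD pigs and of 11.71, 12.96 and 15.55 in LW pigs. The highest value of all was thus that of an LW pig, and the ranges overlapped. The log2 FC of 0.50 (SE 0.24) had a limma adjusted p of 0.134. DNAH11, also an outer arm heavy chain, had a log2 FC of −0.32 (limma adjusted p = 0.142). DNAH17, known as an outer arm chain of the sperm tail, had one of 0.67 (limma adjusted p = 0.138), with a DD maximum of 9.01 against an LW maximum of 6.24. That maximum was the pig DD_21.

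DNAH10 had signal well above background on 2 DD arrays and on no LW array, so that its LW level is only a bound. Against a floor at the lowest signal well above background of each LW array, the DD mean was 1.41-fold higher. That mean also averages DD arrays without such signal, so the fold is no lower limit. The highest DD values, 6.34 and 6.08, were those of DD_21 and DD_23, the 2 dimmest arrays. The limma adjusted p of DNAH10 was 0.0639. Over the 7 heavy chains tested, 6 had a positive log2 FC and the median was 0.50, against −0.04 over all gene names. The differences of DNAH1, DNAH10 and DNAH17 were 0.18, 0.18 and 0.12 within chip 1. Within chip 2 the values were 1.30, 0.32 and 0.40, and within chip 3 −0.23, 1.58 and 1.65.

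RSPH9 encodes a head protein of the radial spoke and lies on chromosome 7, from 38624942 to 38641410. Its log2 values ran from 4.26 over a median of 6.35 to 6.98 in DD pigs, and from 4.42 over 5.11 to 6.06 in LW pigs. The DD pigs fell into unequal parts, with 7 above all LW pigs and 2, DD_13 and DD_16, below all of them. The fitted difference was 0.94 in log2 FC, with SE 0.27 (limma adjusted p = 0.0238). The probe was well above background on 8 of 10 DD and 8 of 11 LW arrays.

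By chip, in order, the RSPH9 difference was 1.06, 0.13 and 1.87. Without chip 3 the log2 FC was 0.50 (limma adjusted p = 0.568), in a fit where 1.51% of all gene names were called. The litter means differed by 0.97 (two-sided exact permutation, unadjusted p = 0.00216, the smallest possible). The call depended on single arrays: without DD_21 the limma adjusted p was 0.0516, and without LW_18 it was 0.0503. With brightness in the model the log2 FC was 0.52 (limma adjusted p = 0.684). RSPH6A, a relative known from the spoke of the sperm tail, had log2 values of 6.42 to 8.29 in DD and 5.89 to 8.84 in LW pigs and a log2 FC of 0.34 (limma adjusted p = 0.202).

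**Figure D3:**
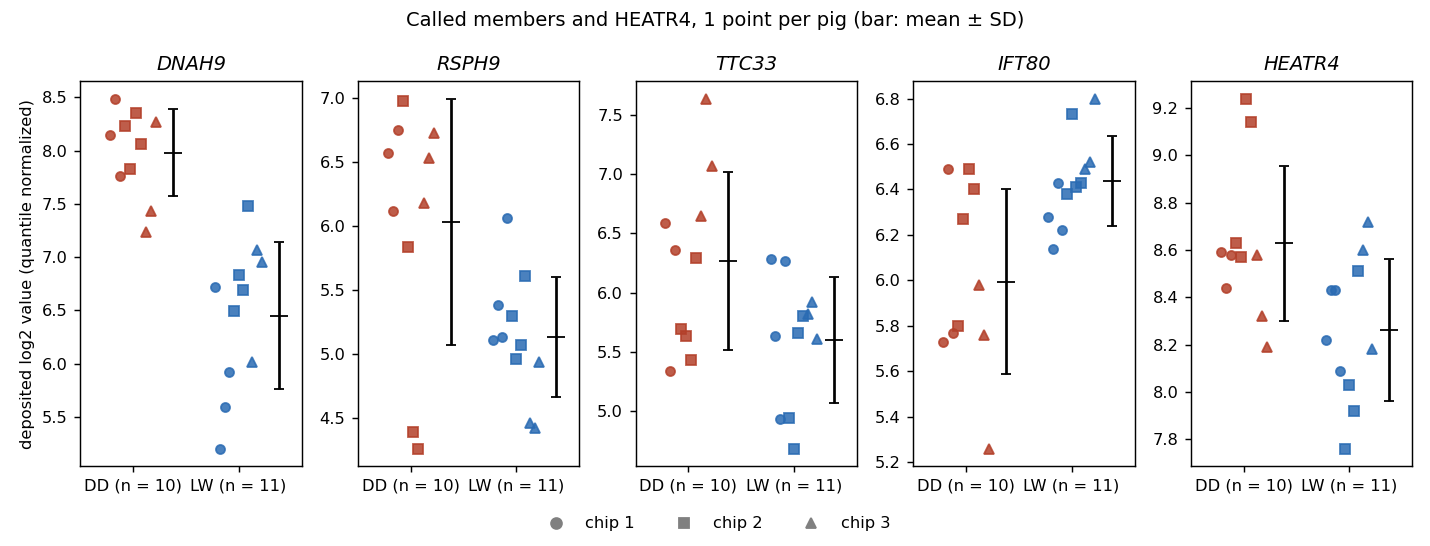
Deposited log2 value (y axis) of the 4 called genes and of HEATR4 in each DD and LW pig, with the mean and SD as a bar and the chip as the shape of the point. In DNAH9 8 of 10 DD pigs lie above all LW pigs, and in RSPH9 2 DD pigs lie below all LW pigs.

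HEATR4 encodes a HEAT repeat protein and lies on chromosome 7, from 96819264 to 96859831. It was above background on all arrays. Its log2 values were 8.19, 8.58 and 9.24 in DD pigs and 7.76, 8.22 and 8.72 in LW pigs, and the ranges overlapped. The log2 FC of 0.36 (SE 0.14) just missed the threshold (limma adjusted p = 0.0599). The litter means differed by 0.36 (two-sided exact permutation, unadjusted p = 0.00649).

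For HEATR4 the letters were measured by a separate spot. The probe under the name TC550653 gave 0.40 (SE 0.15), beside 0.36 (SE 0.14) for the HEATR4 probe, with limma adjusted p-values of 0.0874 and 0.0922 among single probes. By chip the difference in HEATR4 was 0.24, 0.84 and −0.14. It crossed the threshold with the values recomputed from the scanner files (limma adjusted p = 0.046), with an offset of 50 (0.037), with cyclic loess (0.0148) and with the stricter filter on background (0.0429). Without chip 2 the log2 FC of HEATR4 fell to 0.08 (limma adjusted p = 0.641). With brightness in the model it was 0.44 (limma adjusted p = 0.301). The limma adjusted p was 0.112 both without chip 1 and with no chip term.

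IFT80, a subunit of the outward transport complex IFT-B, lies on chromosome 13 from 99943203 to 100078148. Its mean over 3 probes was 5.26, 5.89 and 6.49 (lowest, median and highest) in DD pigs and 6.14, 6.43 and 6.80 in LW pigs. Of the DD pigs, 6 of 10 were below all LW pigs and none was above them. The fitted log2 FC came to −0.45, with SE 0.13 (limma adjusted p = 0.0238), and the litter means differed by −0.45 (two-sided exact permutation, unadjusted p = 0.00433). By chip, in order, DD minus LW was −0.27, −0.24 and −0.94. Without chip 3 the log2 FC was −0.25 (limma adjusted p = 0.499), in a fit where 1.51% of all gene names were called. With brightness in the model the log2 FC was −0.20 (limma adjusted p = 0.748).

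The 3 probes of IFT80 shown above pointed the same way, with log2 FC of −0.54, −0.42 and −0.40. None was called on its own (limma adjusted p = 0.0874, 0.0988 and 0.129). The first was above background on all arrays and the second on all but 1 DD array. The third was on none, so that its part of the mean is a dim value.

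The other transport genes had small differences. IFT46, also of IFT-B, had log2 values of 5.02 to 6.76 in DD pigs and 6.14 to 7.08 in LW pigs, with 4 DD pigs below all LW pigs, and a log2 FC of −0.38 (limma adjusted p = 0.0588). Over the 8 genes of the transport particle tested, 5 were below 0 and 3 above it, with a median of −0.20. DYNLRB1 was close to equal in the breeds, at a log2 FC of −0.04, with SE 0.11 (limma adjusted p = 0.832). The sign of its value turned with the 75th percentile scaling (0.05) and with cyclic loess (0.10). BBS1, a subunit of the BBSome, had −0.14 (SE 0.12, limma adjusted p = 0.423).

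For IFT52, whose product is a core subunit of IFT-B, 5 probes disagreed, and their letters are given for that reason.
IFT52 probe 1: aacttacaagatccttatataagatacatt
IFT52 probe 2: ctaacataggccactcaccccttctcccag
IFT52 probe 3: ggacccagagatttccgactacatgatggt
IFT52 probe 4: tccttgagcatatcttcttccaagtggtgg
IFT52 probe 5: agccttggtcctcaaaagttgctctggaat

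Probe 1 of IFT52 had log2 values of 7.57 to 8.66 in DD pigs and 7.98 to 8.94 in LW pigs and was lower in DD pigs by −0.57 (SE 0.14, limma adjusted p = 0.014 over single probes). Probe 4 was likewise lower, by −0.43 (SE 0.12, limma adjusted p = 0.0275). Probe 2, with 6.76 to 9.37 in DD pigs and 6.58 to 8.03 in LW pigs, had a DD excess of 0.65 (SE 0.19, limma adjusted p = 0.0397). All 3 were above background on every array. Probes 3 and 5 had −0.37 and −0.17 and were not called. The average of the 5 probes thus gave −0.18 in log2 FC, with SE 0.09 (limma adjusted p = 0.159), while the probe with the highest mean gave −0.57.

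Taken probe by probe, 8 member probes were called (6.90%), 5 higher and 3 lower in DD pigs, where 11.3% of all 60305 probes were called. They were the probes of DNAH9, RSPH9 and TTC33, 3 of IFT52, 1 of BBS4 and 1 of DYNC2LI1. The called probe of BBS4, a BBSome subunit, had −0.49 (SE 0.13, limma adjusted p = 0.0208), and the other 3 probes of this gene were above background on 0 to 5 arrays. The called probe of DYNC2LI1 had 0.58 (SE 0.17, limma adjusted p = 0.0348), and the second probe of the gene −0.35 (limma adjusted p = 0.197). Of 23 genes with several probes, 12 had every probe on the same side of 0, and IFT52 alone had called probes on both sides.

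**Figure D4:**
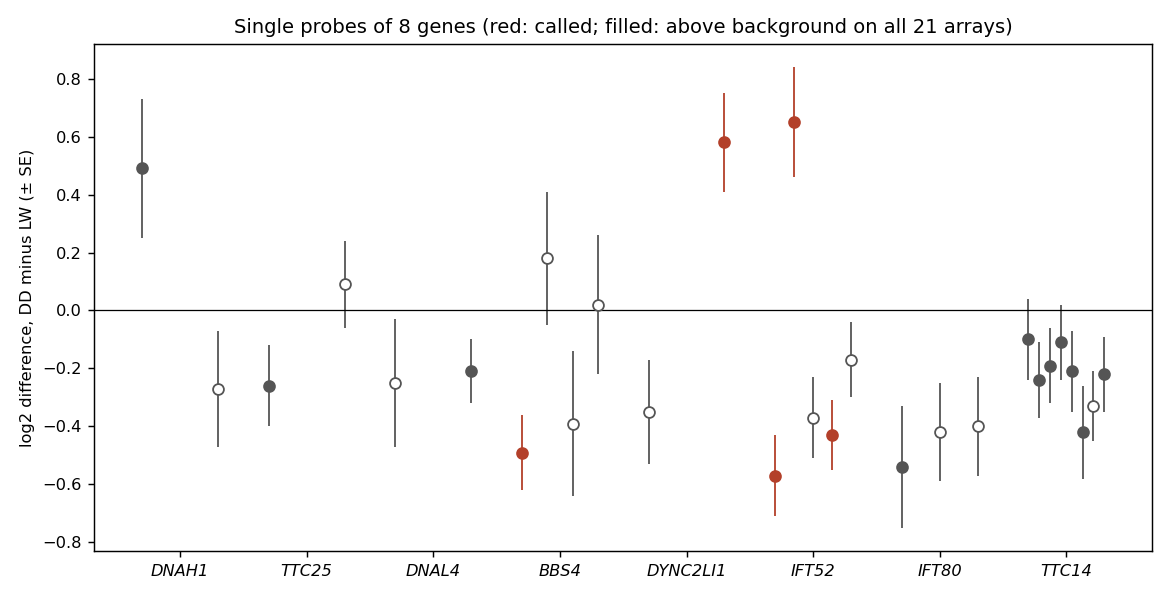
Log2 difference between DD and LW pigs (y axis, points with SE from limma over single probes) of each probe of 8 genes (x axis). Red marks called probes and filled points mark probes above background on all 21 arrays. IFT52 has called probes at −0.57, −0.43 and 0.65.

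Probes of one gene could also differ in whether they had signal at all. DNAH1 had a probe above background on all arrays, with a mean of 13.62 in DD pigs, and another above it on none. TTC25, a docking factor of the outer dynein arm, had the same pattern. Its detected probe had log2 values of 12.58 to 13.85 in DD and 12.75 to 13.60 in LW pigs, and a log2 FC of −0.26 (limma adjusted p = 0.171). DNAL4, a dynein light chain, had a probe on all arrays and another on 3 LW arrays, and its mean differed by −0.23 (limma adjusted p = 0.204). TTC14 had 8 probes that all lay below 0, from −0.42 to −0.10, none of them called. A pair of its probes has identical letters and gave −0.10 and −0.11 (SE 0.14 and 0.13).

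TTC33, a TTC protein without a known ciliary role, lies on chromosome 16 from 25695932 to 25741962. Its log2 values were 5.34, 6.32 and 7.64 in DD pigs and 4.68, 5.66 and 6.28 in LW pigs, and 6 of 10 DD pigs were above all LW pigs. Its fitted log2 FC came to 0.69, with SE 0.21 (limma adjusted p = 0.0277), and the litter means differed by 0.62 (two-sided exact permutation, unadjusted p = 0.0281). By chip it was 0.32, 0.49 and 1.34. Without chip 3 the log2 FC was 0.40 (limma adjusted p = 0.547), in a fit where 1.51% of all gene names were called. The highest log2 value was that of DD_21, the dimmest array. The call was kept in 14 of the 21 fits that left out a single pig. The limma adjusted p was 0.0518 without DD_01, 0.0613 without DD_21, 0.0508 without DD_23, 0.0518 without LW_05, 0.057 without LW_12, 0.0544 without LW_18 and 0.0566 without LW_24. With brightness in the model the log2 FC was 0.09 (limma adjusted p = 0.975).

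The class of other TTC proteins, 18 tested with TTC33 among them, had 7 values above and 11 below 0 and a median of −0.14. TTC1, a cochaperone, had log2 values of 8.73, 10.13 and 10.71 in DD and 7.97, 9.89 and 10.40 in LW pigs. The ranges overlapped, and the log2 FC of 0.54 (SE 0.22) was not called (limma adjusted p = 0.083). TTC31 had 0.27 (SE 0.10, limma adjusted p = 0.0537). Among the SPAG proteins, all 3 tested were below 0 and none was called. SPAG5, the spindle protein, had −0.44 (SE 0.19, limma adjusted p = 0.0957), and SPAG7 had −0.22 (SE 0.33, limma adjusted p = 0.65).

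**Figure D5:**
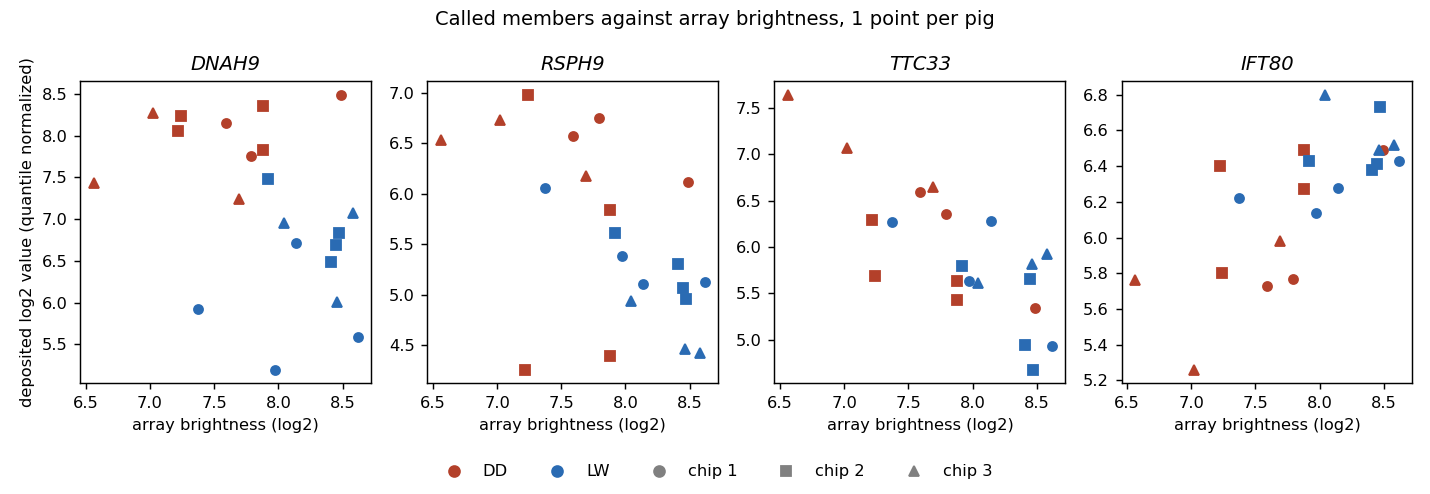
Deposited log2 value of the 4 called genes (y axis) against the brightness of the array (x axis, 75th percentile of processed signal, log2 scale), 1 point per pig, coloured by breed. The TTC33 value is highest, 7.64, on the dimmest array (6.56), and in DNAH9 8 of 10 DD pigs lie above all LW pigs.

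The pigs of the DD line varied more among themselves than LW pigs in 40 of the 51 genes (78.4%), as in 71.7% of all gene names. The median SD was 0.41 in DD and 0.33 in LW pigs for the members, and 0.45 and 0.36 over all gene names. The highest SD, 1.47, was that of TTC39A in DD pigs, where 1 pig had a value of 8.35 and the next 4.31.

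Other genes of the same machinery, outside the name rule, were examined in lists. Of 24 transport genes 12 were tested, with none called higher and MKKS, a BBS chaperonin, lower by −0.38 (SE 0.13, limma adjusted p = 0.044). The list had a median log2 FC of −0.11. Of 35 further axonemal genes 10 were on the array and 7 tested. CCDC113 was called higher in DD pigs (0.38, SE 0.12, limma adjusted p = 0.0301). HYDIN and NME5, of the central pair and the radial spoke, were above background on no array. Of 15 assembly factors for axonemal dynein 4 were tested and none was called (median −0.19).

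Of 26 transition zone and basal body genes 15 were tested, with a median of −0.20. TCTN3 was higher by 0.62 (SE 0.17, limma adjusted p = 0.0184). Among regulators of multiciliated cells, 2 of 13 were tested. RFX1, a transcription factor of wide expression, was higher by 0.67 (SE 0.21) and TP73 lower by −0.50 (SE 0.16), both with a limma adjusted p of 0.0328. While RFX1 was above background on all arrays, TP73 was on 1 DD and 8 LW arrays, so its DD level is a dim value. FOXN4 was above background on no array.

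Markers of other cells were measured beside these genes. Of 13 markers of ciliated epithelium 5 were on the array, all 5 were tested and none was called. None of them was above background on all arrays, and the mean log2 value of the list ran from 4.31 to 5.64 in DD and from 4.47 to 5.86 in LW pigs. Of 16 testis and sperm markers 9 were tested and 3 were called, all higher in DD pigs, where 11.4% of all gene names were called higher. The list had a median log2 FC of 0.08, and its uncalled genes lay between −0.13 (ACRBP) and 0.31 (TNP2). The called genes were GSG1 (2.57, SE 0.40, limma adjusted p = 0.000262), ACR (0.91, SE 0.27, limma adjusted p = 0.0267) and PRM1 (0.43, SE 0.14, limma adjusted p = 0.0327). The mean of that list was 5.88 to 6.61 in DD and 5.49 to 5.96 in LW pigs, and PGK2 was above background on no array. Its part in the result for DNAH9 was not tested.

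The labelled tissue was borne out by its markers. Of 12 whole blood markers 10 were on the array, and all 10 were above background on every array. Lower in DD pigs were PPBP of platelets (−0.94, SE 0.32, limma adjusted p = 0.0413) and PTPRC, the leukocyte antigen CD45 (−0.43, SE 0.12, limma adjusted p = 0.0228). The list mean ran from 9.63 to 11.32 in DD and from 9.94 to 11.49 in LW pigs. The part of a shift in blood cell types in the results above was not tested.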

How the data were processed

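RNA from whole blood was measured on 21 one-colour Agilent arrays, for 10 DD and 11 LW pigs. The authors extracted the spots with Agilent Feature Extraction 10.7.3.1 (per the submitters' processing notes), and the scanner files hold unnormalized intensity values as deposited. The deposited log2 matrix was background corrected with normexp and quantile normalized by the authors, after outlier arrays had been removed. The scanner files' flags for signal well above background were used as deposited. No member spot was saturated. Of the custom probes, 1498 named only gi were each kept as a gene name of their own.

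Gene names are those in the scanner files. Symbols of 65 of the 69 members were found in the RefSeq table of Sscrofa11.1, the build to which the authors had updated their annotation. The members, lists and tests were chosen with earlier results of these data known. The 25% of probes with the lowest mean (up to 3.97 on the log2 scale) were removed and the kept probes of one name averaged. Differences were fitted in limma 3.58.1 (R 4.3.3) with fixed terms for breed and chip and a random block for the sow (consensus correlation −0.11), with eBayes and Benjamini-Hochberg adjustment over all names tested. A second fit took each probe singly. Litter means of chip-corrected values were compared by an exact two-sided permutation. Where a gene was above background on no array of a breed, the fold was taken against the lowest signal well above background of each array. Named in the text are the called members, the member above background on most arrays in each class, HEATR4, RSPH9 and DNAH9, and the called genes of each list (at most 3 in each direction, some of which are not reported here). DNAH2, DNAH6, DNAH10, DNAH11, DNAH17, IFT46, TTC14, TTC31, SPAG5, BBS4, DYNC2LI1 and TTC39A were described after their values were seen. The fit was tested on simulated data. Alternatives were other normalizations, filters, probe choices and models, and each chip or pig left out. With a pig or the 3 dimmest arrays left out, the correlation was kept at its value for all pigs. Figures were drawn with matplotlib 3.10.9.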

Additional observations from a re-analysis of the deposited data

Results flagged for a closer look

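In 7 of the 51 tested genes 1 DD pig lay far from the rest of its breed, by its gap to the next pig as a share of the breed's range (above Dixon's critical value for 10 pigs). Chance flags about 1 in 20 groups, and the 11 LW pigs were too many for this rule. The rule was not run over all gene names. The share was 0.747 in TTC39A, 0.614 in DNAH17 and 0.569 in TTC38, where DD_21, the dimmest array, was highest, and 0.493 in TTC13, where it was lowest. In DNAH17 the pig had a log2 value of 9.01 and the next 6.50. The share was 0.547 in TTC22, where DD_23 was lowest, 0.479 in SPAG7, where DD_16 was lowest, and 0.473 in TTC23L, where DD_08 was highest. None of these genes was called between the breeds.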

How the results depend on the processing

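The count of called members was 4 and moved with the processing. It was 7 with values recomputed from the scanner files, with an offset of 50, with the probe of highest mean, without chip 1 and without chip 2, where 21.0%, 22.5%, 22.4%, 22.4% and 14.2% of all gene names were called. It was 9 of 38 tested with the filter on signal well above background, where 30.9% of all gene names were called. It was 1, DNAH9, with no chip term, without chip 3 and with array brightness as a covariate, and 2 without the 3 dimmest arrays (DD_21, DD_23 and DD_16), an alternative chosen after seeing the data. With these settings 5.42%, 1.51%, 2.19% and 4.30% of all gene names were called. Leaving out single pigs gave counts from 2 (without DD_21 or LW_18) to 10 (without DD_06), and it was 7 without LW_15, with 10.6%, 10.8%, 28.3% and 21.1% of all gene names called. The filter on background gave 12 called member probes of 64 tested, in place of 8, and 10044 of all 35649 probes tested. The flag for a positive and significant signal gave 32 members on all arrays in place of 25. DNAH9 was called under all alternatives, from 1.05 to 1.69. RSPH9 kept its direction under all, from 0.50 to 1.42, as did TTC33, from 0.09 to 0.87, and IFT80, from −0.58 to −0.20, and each lost its call in some. Uncalled values that turned sign were DYNLRB1 (−0.04), with the 75th percentile scaling (0.05), cyclic loess (0.10), without chip 1 (0.04) and without DD_08 (up to 0.02, from −0.10 with other pigs left out), SPAG7 (−0.22), without chip 2 (0.28), the dimmest arrays (0.02) and DD_16 (up to 0.04, from −0.42), and TTC25 (−0.26), with brightness (0.10). The 75th percentile scaling put the median of all gene names at 0.06, against −0.04. The cause of these changes was not tested. No paired analysis was possible because the numbers of the pigs are not shared between the breeds. Signal over background limits what can be said of the 19 genes detected on no array.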
